A study of Mus musculus with 17 samples.

Results

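The transcription factor p53 and 9 genes known as its targets were followed through the differentiation of mouse intestinal organoids, with and without KPT-330, an inhibitor of the nuclear exporter XPO1. The genes are Trp53, which encodes p53, and Mdm2, Cdkn1a, Ccng1, Phlda3, Zmat3, Trp53inp1, Eda2r, Sesn1 and Btg2. They were taken by symbol from the single-cell count tables, and all 10 were found among the 26422 genes listed there. Organoids came from small-intestinal crypts of C57BL/6 mice, male and female and wild-type, and no group carried an edited allele. ENR+CV organoids (2 libraries, day 0) were held in a stem-enriching medium that pairs growth factors with a Wnt activator and a histone deacetylase inhibitor. Control organoids (ENR+CD, 7 libraries) had moved to a medium with a Wnt activator and a Notch pathway inhibitor, which favours Paneth cells, and treated organoids (ENR+CD+KPT-330, 8 libraries) had the same medium with 160 nM KPT-330. Days 0.25, 1, 2, 3, 4 and 6 were sampled in both conditions. Day 6 has 2 libraries per condition and day 3 has 2 KPT-330 libraries, whereas the other days have 1 library each, and each library was made from many pooled organoids.

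p53 is a sequence-specific activator that is controlled mainly through its protein, which the ubiquitin ligase MDM2 marks for destruction and which XPO1 can carry out of the nucleus. When p53 accumulates it switches on genes that halt the cell cycle, promote cell death, repair damage or restrain p53 itself, so the transcripts of its targets are often read as a sign of its activity. In the intestinal crypt it is best known for its part in the response to irradiation. The data described here are transcripts only, and the amount and location of p53 protein were not measured in them.

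In the promoters of 2 of the genes a sequence close to the p53 response element lay within the window of 250 bases before to 50 after the transcription start. These genes were Cdkn1a and Ccng1, and the sequence is shown for every listed gene with such a match. The consensus p53 response element was searched on both strands of the RefSeq promoters of build GRCm38.p6, and a sequence counted as a match with at least 18 of 20 bases. Of 32851 promoters in the table, 224 (0.682%) held such a match. The listed genes that have an entry, 8 in all, have 10 promoters. Best matches of the genes without a counted match ran from 11 of 20 bases for Mdm2 and Eda2r to 17 for Trp53 and a promoter of Sesn1. Btg2 had 13. Each match below had 19 of 20 bases, and capitals mark the matched element within 60 bases of the gene's own strand. The Cdkn1a stretch is chr17:29090908-29090967 on the plus strand. Its element begins 51 bases before the transcription start of the promoter at chr17:29090729-29091028. Another promoter listed for Cdkn1a, chr17:29093519-29093818, had a best match of 13 of 20 bases and so did not count as a match. The Ccng1 stretch is chr11:40755442-40755501 on the minus strand with its element beginning 195 bases before the start. A match is a description of the letters and not evidence of binding.
Cdkn1a: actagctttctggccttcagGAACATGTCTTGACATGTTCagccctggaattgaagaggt
Ccng1: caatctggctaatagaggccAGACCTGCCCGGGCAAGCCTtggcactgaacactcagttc

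Levels are given as UMIs (unique molecular identifiers, counted transcripts) per 10000 UMIs of a library, over the 19877 cells that the authors kept. Libraries held 531 to 1547 cells and 3458887 to 12433109 UMIs, with medians of 7982400 in control and 4517986.5 with KPT-330, and a cell had a median of 2676 to 8463 UMIs. The cells of different libraries shared 14 barcode sequences. Libraries carried 24.7 to 34.3 UMIs per 10000 of the epithelial markers Epcam, Krt8, Vil1 and Cdh1 together, while the immune marker Ptprc had 3 UMIs, the fibroblast marker Col1a1 had 22 and the endothelial marker Cdh5 had 6 over all cells. Xpo1, the transcript of the drug target, lay between 0.607 and 1.69 UMIs per 10000 in control and between 1.03 and 5.01 with KPT-330, and it was above control at each of the 6 days. Differences between conditions were tested on counts summed per library with edgeR's quasi-likelihood test, with the day as a term, TMM scaling and p-values adjusted by Benjamini-Hochberg across every gene in the fit. What a replicate number stands for is not given in the labels, so the p-values measure the spread between these libraries, which may be technical. Since most days have 1 library per condition, that spread also includes differences of the KPT-330 effect between days. In counts summed over cells, fewer cells of a type and less RNA per cell cannot be told apart.

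Trp53 itself was lower with KPT-330 at every one of the 6 days. In control, its level was 1.94 at day 0.25, 1.67 at day 1, 1.06 at day 2, 0.945 at day 3, 1.03 at day 4 and 0.845 and 0.848 at day 6. With KPT-330 it was 1.49, 1.23 and 0.696 at the first 3 days, 0.62 and 0.466 at day 3, 0.55 at day 4 and 0.414 and 0.427 at day 6. No KPT-330 library reached a control library of its own day, although the conditions overlapped when days were set aside. Before scaling, the level with KPT-330 was 0.769 of control at day 0.25 and 0.497 of control at day 6. After TMM scaling the day 6 gap was smaller, since treated libraries stood at 0.58 and 0.479 and control libraries at 0.833 and 0.784. The scaled pair of day 0.25 was 1.34 (treated) and 1.73 (control). Scaled Trp53 still lay below control at each of the 6 days. On the scaled counts Trp53 fell by 0.47 on the log2 scale (log2 fold change -0.47 ± 0.082, SE derived from the test, adjusted p = 0.00168), and by 0.43 to 0.51 with each single library left out.

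**Figure D1:**
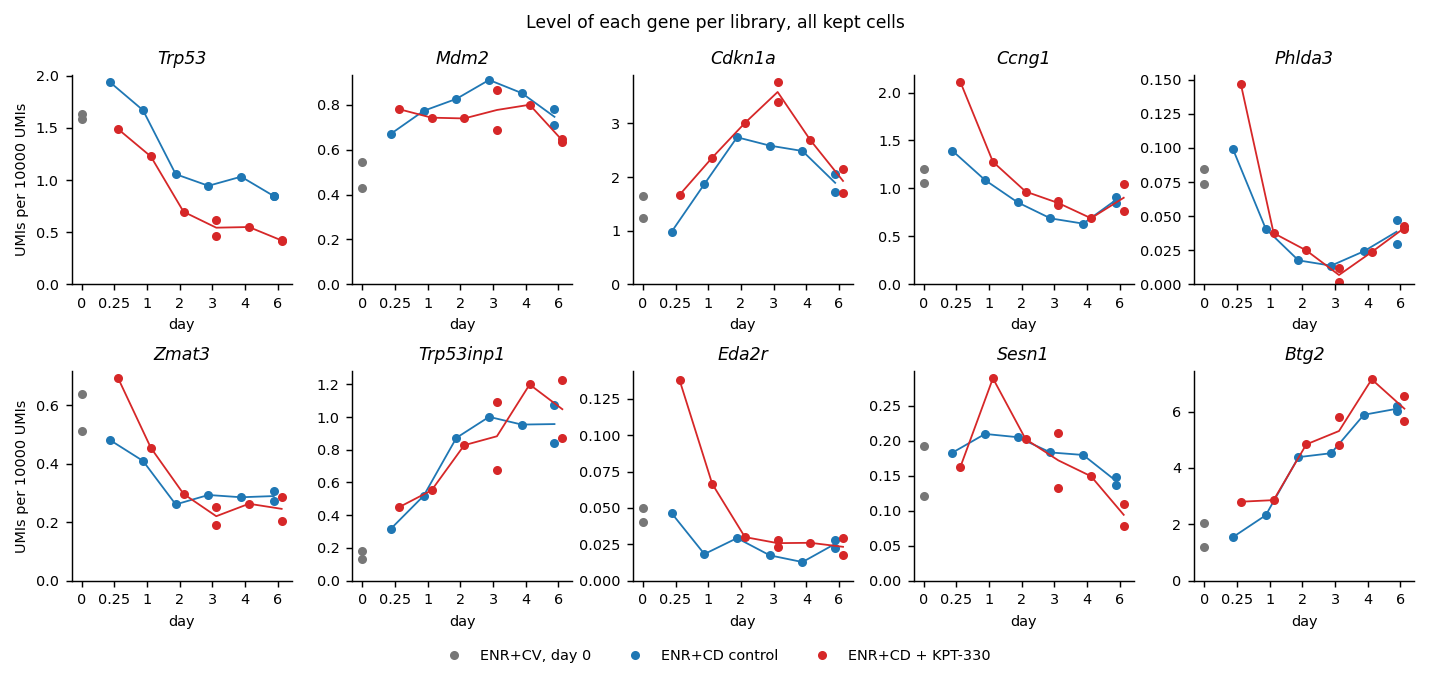
Level of each of the 10 genes in UMIs per 10000 UMIs of the library (vertical axes, starting at 0) against the day (horizontal axes), with 1 point per library for ENR+CV, control and KPT-330, lines through the mean of each day, and days spaced evenly. Trp53 falls over the days and lies lower with KPT-330 at each of them. On these levels, which are not TMM-scaled, Cdkn1a lies above control from day 0.25 to day 4 and meets it at day 6.

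Of the targets that halt the cell cycle, Cdkn1a encodes p21, the inhibitor of cyclin-dependent kinases. In control its level was 0.982 at day 0.25, 1.87 at day 1, 2.74 at day 2, 2.59 at day 3, 2.48 at day 4 and 2.06 and 1.73 at day 6. In the KPT-330 libraries it was 1.67, 2.36 and 3.01 at the first 3 days, 3.77 and 3.4 at day 3, 2.69 at day 4 and 2.14 and 1.71 at day 6. Each KPT-330 library was thus above the control library of its day up to day 4, and the conditions overlapped at day 6. On these unscaled levels the ratio up to day 4 ran from 1.08 at day 4 to 1.7 at day 0.25. Its scaled counts rose with a log2 fold change of 0.55 ± 0.11 (adjusted p = 0.00359). Scaled levels at day 6 were 3 and 1.92 with KPT-330 against 2.02 and 1.6 in control, so these still overlapped.

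Ccng1, which encodes cyclin G1, was likewise higher with KPT-330 up to day 4. Its level in control fell from 1.39 at day 0.25 and 1.09 at day 1 to 0.854 at day 2, 0.688 at day 3 and 0.633 at day 4, and was 0.912 and 0.848 at day 6. The treated libraries had 2.11, 1.28 and 0.968 at the first 3 days, 0.83 and 0.866 at day 3, 0.689 at day 4 and 1.04 and 0.762 at day 6. On unscaled levels the ratio of treated to control up to day 4 ran from 1.09 at day 4 to 1.52 at day 0.25, and the conditions overlapped at day 6. The scaled counts rose with a log2 fold change of 0.49 ± 0.10 (adjusted p = 0.00412). At day 6 the scaled levels were 1.46 and 0.855 with KPT-330 and 0.898 and 0.784 in control, which also overlapped.

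Btg2, an antiproliferative gene induced early after stress, lay between 1.55 and 6.19 in control with a median of 4.52, and between 2.8 and 7.14 with KPT-330 with a median of 5.24. On unscaled levels the ratio was largest at day 0.25, at 2.8 against 1.55, and the conditions overlapped at day 6. On the scaled counts each KPT-330 library was above every control library of its day at all 6 days. At day 6 Btg2 had scaled levels of 7.9 and 7.36 with KPT-330 against 6.09 and 5.56 in control. Its log2 fold change was 0.52 ± 0.087 (adjusted p = 0.00139), which was past the threshold in 15 of 15 fits with a library left out.

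Mdm2, the ligase that closes the feedback loop on p53, changed little. Its level lay between 0.671 and 0.911 in control with a median of 0.783, and between 0.636 and 0.866 with KPT-330 with a median of 0.741. The ranges overlapped almost throughout. Its log2 fold change of 0.15 ± 0.077 did not pass the test (adjusted p = 0.158).

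Among the targets tied to cell death and stress, Eda2r, a receptor of the tumour necrosis factor family, was sparse, with 336 UMIs over the 15 differentiating libraries. Its level was 0.0464 in control against 0.138 with KPT-330 at day 0.25 and 0.0183 against 0.0665 at day 1, and from day 2 on it lay between 0.0128 and 0.0293 in control and between 0.0175 and 0.03 with KPT-330. The treated libraries stood well apart at the first 2 days, and later the ranges of the conditions overlapped. The log2 fold change was 0.93 ± 0.25 (adjusted p = 0.0146), and without days 0.25 and 1 it was 0.56 and did not pass (adjusted p = 0.140, with a range over the alternatives other than single libraries of 0.0011 to 0.145).

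Trp53inp1, a p53-induced nuclear protein linked to autophagy and cell death, lay between 0.318 and 1.07 in control with a median of 0.873, and between 0.449 and 1.23 with KPT-330 with a median of 0.848. On unscaled levels the groups overlapped, and the rise of 0.37 ± 0.11 (log2, adjusted p = 0.0208) belonged to the scaled counts. The call was close to the threshold. It was lost without the control library of day 4 (0.31, adjusted p = 0.0779), without the KPT-330 library of day 4 (0.31, adjusted p = 0.0673), without days 0.25 and 1 (0.37, adjusted p = 0.0538), in days 0.25 to 2 alone (0.26, adjusted p = 0.2145) and in days 3 to 6 alone (0.44, adjusted p = 0.0537), within a range over the alternatives of 0.00206 to 0.485.

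Zmat3, a p53-induced RNA-binding protein, Phlda3, an inhibitor of AKT signalling, and Sesn1, a stress-induced brake on growth signalling, did not pass the test. Zmat3 lay between 0.261 and 0.48 in control and between 0.189 and 0.691 with KPT-330, with a log2 fold change of 0.23 ± 0.090 (adjusted p = 0.0729). Phlda3 had 369 UMIs in the fit and lay between 0.0137 and 0.099 in control and between 0.00149 and 0.147 with KPT-330, with a log2 fold change of 0.37 ± 0.25 (adjusted p = 0.273). The lowest Phlda3 value was the second KPT-330 library of day 3, and the other library of that day and condition had 0.0122. Sesn1 lay between 0.137 and 0.21 in control and between 0.0784 and 0.289 with KPT-330, with a log2 fold change of 0.09 ± 0.12 (adjusted p = 0.587). For these genes the conditions overlapped over most of their range.

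In all, 6 of the 10 genes passed the test in all cells, with Cdkn1a, Ccng1, Btg2, Eda2r and Trp53inp1 higher and Trp53 lower with KPT-330. Of all 11777 genes tested, 29.6% were called, 15% higher and 14.6% lower, so a called gene is common in this comparison. The median log2 fold change of the 10 genes was 0.37, beside 0.003 over all genes tested. In the fit of days 0.25 to 2 alone, in which 5.34% of the genes tested were called, and in that of days 3 to 6 alone, in which 25.2% were, Trp53, Cdkn1a, Ccng1 and Btg2 passed.

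The directions depended in part on the scaling. TMM factors lay between 1.0154 and 1.1503 in control libraries and between 0.7147 and 1.1124 in KPT-330 libraries, so the scaled comparison raises treated libraries against plain totals. With library totals alone the median log2 fold change over all genes was -0.258, and 452 genes were called higher and 4672 lower, against 1764 and 1717 with TMM. Without TMM, Trp53 (-0.73), Cdkn1a (0.27, adjusted p = 0.0469, the highest over the alternatives, which began at 5.92e-06) and Eda2r (0.69) still passed. Ccng1 (0.22, adjusted p = 0.0644, with a range from 2.17e-05), Btg2 (0.25, adjusted p = 0.0663, with a range from 3.04e-08) and Trp53inp1 (0.11, adjusted p = 0.485, with a range from 0.00206) did not. Mdm2 (-0.12), Zmat3 (-0.03) and Sesn1 (-0.16) changed sign. Taken relative to the median of all genes, the values without TMM were -0.47 for Trp53, 0.53 for Cdkn1a, 0.48 for Ccng1 and 0.51 for Btg2.

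**Figure D2:**
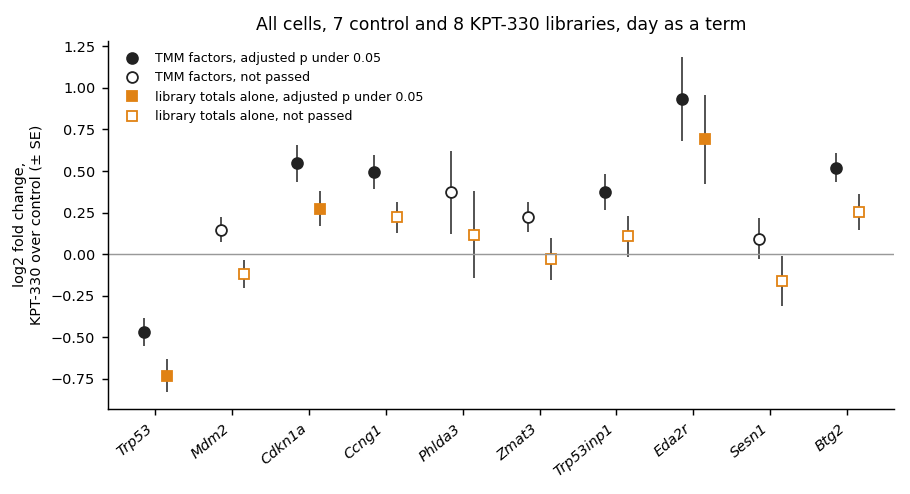
Log2 fold change of KPT-330 over control for each of the 10 genes (vertical axis, ± SE) in the fits with TMM scaling and with library totals alone, with filled points for adjusted p under 0.05. Trp53 stands below 0 and Cdkn1a and Eda2r above 0 under both scalings, whereas Mdm2, Zmat3 and Sesn1 change sign.

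The make-up of the organoids moved with day and treatment. Cells were clustered and each cluster was labelled by the marker list with the highest score, so that the labels stand for likeness to a type and the lists were themselves drawn by the study from these samples. In control, stem II/III-like cells (stem II-like and cycling stem III-like cells joined) fell from 80.5% of cells at day 0.25 to 6.98% at day 6, and with KPT-330 from 79.3% to 1.78%. At day 6, Paneth-like cells made up 48.4% of control cells and 66.3% of KPT-330 cells, and stem I-like cells 19.3% and 4.49%. At day 3, enterocyte-like cells made up 10.2% and 30.7%, and enteroendocrine-like cells 23.9% and 10.3%. How much of the differences in all cells these shares carry was not tested, and the genes were therefore also compared within each class.

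In untreated libraries with at least 20 cells of a class, the genes were spread unevenly over the classes. These levels are a description, since the classes were built from the same cells, although the clustering left out 24 genes of the p53 pathway lists, 6 of the 10 genes among them. Trp53 was highest in stem II/III-like cells, at 2.21 ± 0.398 UMIs per 10000 (SD, n = 9 libraries). It was followed by early secretory-like cells at 1.8 ± 0.644 (n = 4), stem I-like cells at 1.58 ± 0.0944 (n = 6), enteroendocrine-like cells at 1.29 ± 0.543 (n = 8), Paneth-like cells at 0.726 ± 0.284 (n = 7) and enterocyte-like cells at 0.573 ± 0.343 (n = 9). For neighbours in this order the intervals of the mean ± SD overlapped. The libraries behind the classes differ in day. Early secretory-like cells reached 20 in a library only up to day 2, and stem I-like cells only from day 1 on. Class and day are therefore mixed in this order and in those that follow.

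Cdkn1a had nearly the opposite order. It was highest in enteroendocrine-like cells, at 4.64 ± 1.45, followed by enterocyte-like cells at 3.41 ± 1.07, Paneth-like cells at 1.94 ± 0.415, early secretory-like cells at 1.54 ± 0.801, stem II/III-like cells at 0.972 ± 0.232 and stem I-like cells at 0.481 ± 0.227. The intervals of the mean ± SD did not overlap between the last 2 classes, and those of the other neighbours did. With cells labelled by marker scores this order changed, since early secretory-like cells stood at 2.84 ± 1.33, above Paneth-like cells at 1.91 ± 0.452, and stem I-like cells at 0.863 ± 0.406 overlapped stem II/III-like cells at 1.14 ± 0.221. Btg2 was highest in Paneth-like cells, at 5.99 ± 1.19, and lowest in stem II/III-like cells, at 1.69 ± 0.393, and Trp53inp1 likewise ran from 1.1 ± 0.189 in Paneth-like cells to 0.3 ± 0.204 in stem II/III-like cells. Both were thus lowest in the class where Trp53 was highest, although Trp53inp1 was also high in stem I-like cells, at 1.01 ± 0.138.

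The other genes were more even. Mdm2 ran from 1.08 ± 0.165 in enteroendocrine-like cells to 0.682 ± 0.27 in early secretory-like cells, and Ccng1 from 1.24 ± 0.406 in enterocyte-like cells to 0.73 ± 0.221 in enteroendocrine-like cells. Zmat3 ran from 0.45 ± 0.172 in enteroendocrine-like cells to 0.231 ± 0.0749 in Paneth-like cells, and Sesn1 from 0.231 ± 0.125 in stem I-like cells to 0.114 ± 0.081 in Paneth-like cells. For these 4 genes the interval of each class overlapped that of the next. Phlda3 and Eda2r were too sparse for an order, with at most 0.0911 ± 0.0519 and 0.0765 ± 0.0706 in any class. Of 120 class levels recomputed with 2 other ways of labelling cells, 112 stayed within 1 SD.

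**Figure D3:**
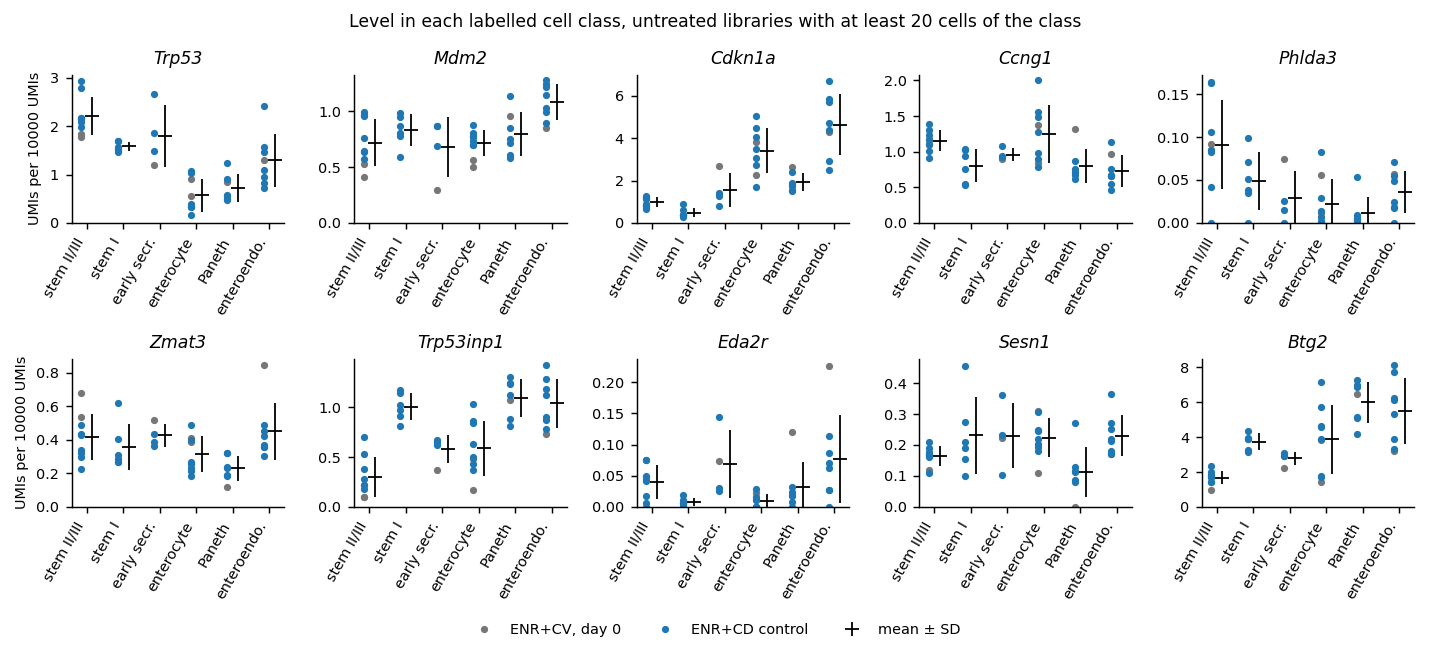
Level of each gene in UMIs per 10000 UMIs (vertical axes, starting at 0) in 6 labelled cell classes of the untreated libraries, with 1 point per library that has at least 20 cells of the class (grey for ENR+CV, blue for control) and a cross for the mean ± SD. Trp53 is highest in stem II/III-like cells (mean 2.21) and Cdkn1a in enteroendocrine-like cells (mean 4.64).

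Within stem II/III-like cells, Cdkn1a and Ccng1 were higher with KPT-330, and they were 2 of the 9 genes of the set that could be tested there (0.681% of all 8670 genes tested were called). The fit used 11 libraries, at the 5 days on which both conditions had at least 20 such cells. In control, Cdkn1a stood at 0.777 at day 0.25, 0.819 at day 1, 0.875 at day 2, 0.649 at day 3 and 1.14 and 1.27 at day 6, and with KPT-330 at 1.28, 1.09, 0.861, 2.34 and 2.71. It was above control at 4 of 5 days, and the last 2 values came from 37 and 22 cells. Its log2 fold change was 0.79 ± 0.18 (adjusted p = 0.0404).

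Ccng1 in these cells stood at 1.38, 1.01, 1.11 and 0.913 at the first 4 days and 1.24 and 1.3 at day 6 in control, and at 2.11, 1.31, 1.45, 1.28 and 2.13 with KPT-330. It was above control at each of the 5 days, with a log2 fold change of 0.55 ± 0.12 (adjusted p = 0.0267). Trp53 ranged from 1.98 to 2.93 in control and from 1.58 to 1.87 with KPT-330, so its ranges did not overlap, but its log2 fold change of -0.31 ± 0.13 did not pass the test (adjusted p = 0.329). Zmat3 was above control at 5 of 5 days, with 0.57 ± 0.18 (adjusted p = 0.177), and Btg2 had 0.45 ± 0.17 (adjusted p = 0.277).

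The 2 calls in stem II/III-like cells were fragile. With a library left out, Cdkn1a kept its direction but missed the threshold in 9 of 11 fits (adjusted p from 0.0181 to 0.239), and Ccng1 likewise in 9 of 11 (0.0364 to 0.26). The highest p of each gene came without either library of day 0.25. These fits are not all distinct, since leaving out the only library of a condition at a day removed that day. At days 0.25, 1, 2 and 3 both libraries thus gave the same fit. The class also differed in its parts, since its KPT-330 cells were 736 stem II-like and 476 stem III-like, and its control cells 655 and 1079. In stem III-like cells alone, which left 4 days, the log2 fold changes were 0.86 for Cdkn1a (adjusted p = 0.108) and 0.54 for Ccng1 (adjusted p = 0.110), and in stem II-like cells alone, with 2 days, 0.48 (adjusted p = 0.527) and 0.52 (adjusted p = 0.419). Over the alternatives other than single libraries the adjusted p ran from 2.64e-05 to 0.527 for Cdkn1a and from 0.0163 to 0.419 for Ccng1.

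In the other 4 classes 0 of the 8 genes that could be tested passed in edgeR. At an unadjusted p under 0.05 there were 2 in stem I-like cells, where 16% of all genes tested had such a p, and 2 in enterocyte-like cells (15.6%), Cdkn1a and Ccng1 in both. There was 1 in Paneth-like cells (Btg2, 20.3%) and there were 5 in enteroendocrine-like cells (Trp53, Cdkn1a, Ccng1, Zmat3 and Trp53inp1, 13.7%). DESeq2 called Cdkn1a in enterocyte-like cells and Btg2 in Paneth-like cells. In stem I-like cells, where 4.4% of 8290 genes were called, Cdkn1a ranged from 0.263 to 0.876 in control and from 0.244 to 0.977 with KPT-330, with a log2 fold change of 0.75 ± 0.23 (adjusted p = 0.0574). In enterocyte-like cells, where 3% of 8222 genes were called, it ranged from 1.71 to 5.04 in control and from 2.5 to 5.9 with KPT-330, with 0.35 ± 0.11 (adjusted p = 0.0914), and Ccng1 had 0.38 ± 0.13 (adjusted p = 0.140). Both ranges overlapped across days. The class joins early enterocyte-like cells (634 in control, 711 with KPT-330) and enterocyte-like cells (448 and 1332), so its parts differed between conditions. One enterocyte-like cluster of 163 cells was 98.8% KPT-330 cells, and without it Cdkn1a had 0.40 and passed (adjusted p = 0.0368, with a range over the alternatives other than single libraries of 0.0268 to 0.26).

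In Paneth-like cells, where 6.68% of 9746 genes were called, Cdkn1a was close in both conditions. It ranged from 1.51 to 2.38 in control and from 1.27 to 2.32 with KPT-330, with a log2 fold change of 0.07 ± 0.11 (adjusted p = 0.785), and Ccng1 had 0.03 ± 0.094 (adjusted p = 0.897). The Cdkn1a ranges lay almost on top of each other, while Ccng1 ran from 0.613 to 0.864 in control and from 0.513 to 1.1 with KPT-330. Btg2 ranged from 4.16 to 7.26 in control and from 4.46 to 8.88 with KPT-330, with 0.31 ± 0.10 (adjusted p = 0.0755).

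In enteroendocrine-like cells, where 1.92% of 8563 genes were called, Cdkn1a parted by day. With KPT-330 it stood at 9.87 at day 1, 8.91 at day 2, 8.8 and 9.31 at day 3 and 7.05 at day 4, and in control at 4.73, 5.72, 6.69 and 5.87. At day 6 both conditions were low, at 1.96 and 2.25 with KPT-330 and 2.92 and 2.48 in control. Treated libraries were thus above control up to day 4 and below it at day 6. The class joins 3 clusters that held the conditions unequally. Cells with KPT-330 made up 43.7% of the cluster led by the hormone genes Gcg and Cck, 25.1% of the larger and 54.9% of the smaller cluster led by Neurog3, a factor of endocrine progenitors. Over all days the log2 fold change was 0.38 ± 0.15 (adjusted p = 0.254). Ccng1 had 0.44 ± 0.16 (adjusted p = 0.172). Early secretory-like cells were not fitted, and their values are given side by side for the 3 days with enough of them, with 1 library per condition each. Their Cdkn1a stood at 0.796, 1.4 and 1.28 in control at days 0.25, 1 and 2 and at 2.75, 1.86 and 2.39 with KPT-330, from 11 to 106 UMIs per library.

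Trp53, which fell in all cells, passed in none of the 5 classes fitted. On unscaled levels each KPT-330 library was below control at 5 of 5 days in stem II/III-like cells, 4 of 5 in stem I-like cells, 4 of 6 in enterocyte-like cells, 4 of 5 in Paneth-like cells and 4 of 5 in enteroendocrine-like cells. Beside the -0.31 in stem II/III-like cells, its log2 fold change was -0.05 ± 0.12 in stem I-like cells (adjusted p = 0.903), -0.32 ± 0.16 in enterocyte-like cells (adjusted p = 0.343), -0.22 ± 0.12 in Paneth-like cells (adjusted p = 0.305) and -0.36 ± 0.14 in enteroendocrine-like cells (adjusted p = 0.212). In all cells it was -0.47, while the share of stem II/III-like cells, where its level was highest without the drug, was also lower with KPT-330 from day 1 on.

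**Figure D4:**
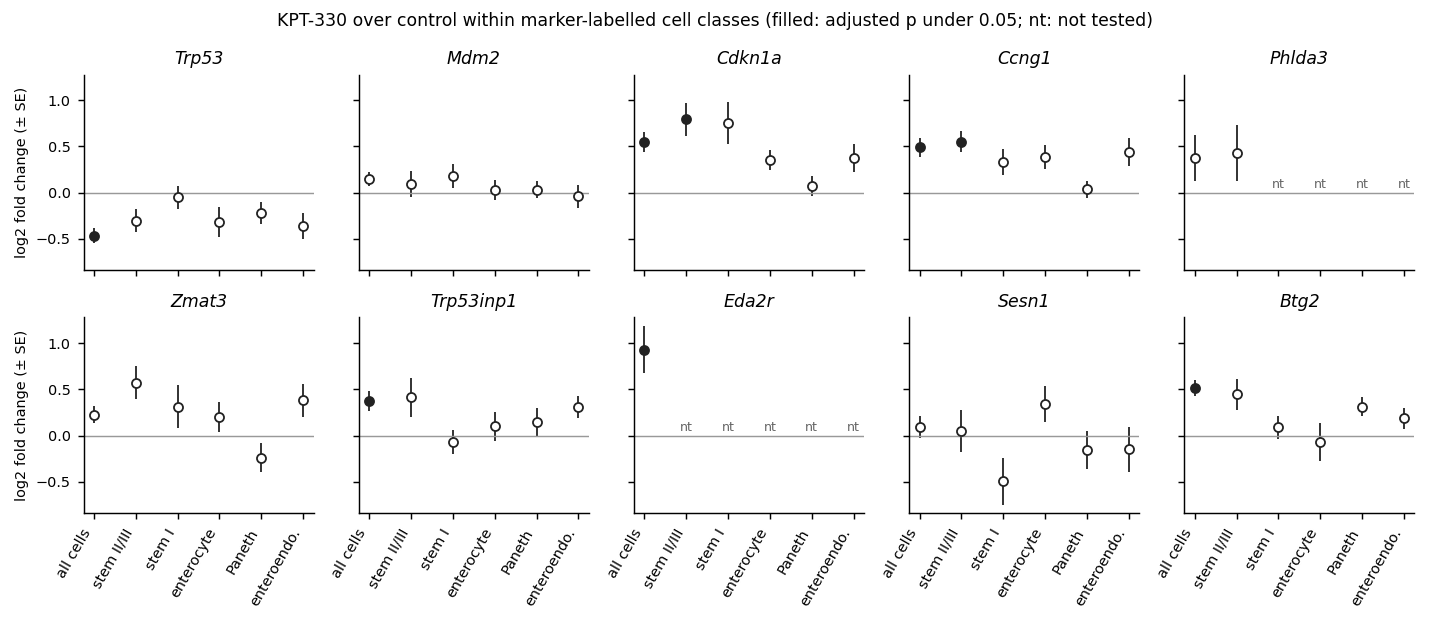
Log2 fold change of KPT-330 over control (vertical axes, ± SE) for each gene in all cells and in 5 labelled cell classes, with filled points for adjusted p under 0.05 and nt where a gene was too sparse to be tested. Cdkn1a stands at 0.79 in stem II/III-like cells and 0.07 in Paneth-like cells, and the filled points within classes are Cdkn1a and Ccng1 in stem II/III-like cells.

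Although the estimates differed between classes, a difference between them was not shown. A test of whether the KPT-330 effect differed between the 5 classes took up to 5 class sums from each library, with a term for the library and for each class at each day. It called 1.64% of 11043 genes and none of the 10. The adjusted p was 0.557 for Cdkn1a and 0.468 for Ccng1, and the smallest, for Sesn1, was 0.345. At an unadjusted p under 0.05 there were 2, Zmat3 and Sesn1, beside 11.8% of all genes tested, and DESeq2 called 0. Of the fits within a class, Phlda3 passed the filter on low counts in stem II/III-like cells alone and Eda2r in none.

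Without the drug, Trp53 and Btg2 moved in opposite directions over the days, which also differed in replicate number. In control, days 0.25 and 1 have only replicate 1, days 2, 3 and 4 only replicate 2, and day 6 has both. The fit had no term for the replicate, so a change with day and a difference between replicate numbers cannot be fully told apart. In ENR+CV organoids at day 0, Trp53 stood at 1.63 and 1.59 UMIs per 10000 and Btg2 at 1.18 and 2.06. Over the 7 control libraries Trp53 fell by 0.18 ± 0.042 per day on the log2 scale (adjusted p = 0.0281) and Btg2 rose by 0.30 ± 0.059 per day (adjusted p = 0.0188). Of 12442 genes tested for this trend, 17.2% were called, 7.88% upwards and 9.3% downwards. Each call depended on single libraries. Trp53 missed the threshold in 5 of 7 fits with a library left out (adjusted p from 0.023 to 0.107, highest without day 0.25), and Btg2 in 3 of 7 (0.0145 to 0.0769, highest without day 1). Trp53inp1 had a slope of 0.20 ± 0.065 per day (adjusted p = 0.0595), and Cdkn1a one of 0.06 ± 0.076 (adjusted p = 0.571), with 1.23 and 1.64 in ENR+CV organoids. Day 0 was left out of the trend because its medium differed.

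Whether the KPT-330 effect itself changed with day was tested with the product of treatment and day. In edgeR 0 of the 11777 genes passed at an adjusted p under 0.05, 11% had an unadjusted p under 0.05, and DESeq2 called 59 genes, none of them among the 10. None of the 10 genes had an unadjusted p under 0.05. The coefficient closest to the threshold was that of Eda2r, at -0.21 ± 0.11 per day (adjusted p = 0.528). Those of Trp53 (-0.04 ± 0.039) and Cdkn1a (-0.02 ± 0.054) were within 2 SE of 0, so a change with day of the Cdkn1a and Trp53 differences was not shown.

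Other genes of the pathway were counted from fixed lists of regulators and targets, and values are given for those past the threshold, at most 4 a list by size. In the list of p53 regulators, 10 of 13 genes could be tested, 3 fell and none rose (beside 14.6% and 15% of all genes tested), with a median log2 fold change of -0.17. These were the checkpoint kinase genes Chek1 (-0.65 ± 0.20, adjusted p = 0.0246) and Atr (-0.55 ± 0.096, adjusted p = 0.00167) and the damage-response gene Trp53bp1 (-0.56 ± 0.11, adjusted p = 0.00315). Chek1 missed the threshold in 4 of 15 fits with a library left out.

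Of the arrest targets, 8 could be tested, of which 3 rose and 1 fell, again beside 15% and 14.6% of all genes tested. Gadd45a, a damage-induced gene that the study also lists with enteroendocrine cells, fell by 0.64 ± 0.12 (log2, adjusted p = 0.00219), while the share of enteroendocrine-like cells was also lower with KPT-330 from day 1 on. Within enteroendocrine-like cells Gadd45a fell too, by 0.76 ± 0.15 (adjusted p = 0.0116), a call that was lost without either library of day 4 (-0.67, adjusted p = 0.0567). Sfn (0.56 ± 0.20), Ier5 (0.44 ± 0.16) and Tob1 (0.34 ± 0.11) rose, but missed the threshold in 11, 10 and 8 of 15 fits with a library left out.

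Of the apoptosis targets, 6 of 10 tested genes were higher and none lower, where 15% and 14.6% of all genes were, with a median log2 fold change of 0.43. The death receptor gene Fas had a log2 fold change of 1.24 ± 0.28 (adjusted p = 0.00688), Pmaip1, which encodes the BH3-only protein NOXA, 1.06 ± 0.20 (adjusted p = 0.00266), Bbc3, which encodes PUMA, 0.60 ± 0.16 (adjusted p = 0.0139) and Perp 0.57 ± 0.091 (adjusted p = 0.00111). Fas was sparse, with levels of 0.00877 to 0.0459 in control and 0.02 to 0.0656 with KPT-330, and Pmaip1 ran from 0.284 to 0.575 and from 0.282 to 0.968. Perp was above control at each of the 6 days, Fas and Pmaip1 at 5.

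Among repair and nucleotide targets, Polk, a translesion polymerase, rose by 0.47 ± 0.088 (adjusted p = 0.00235), and Ddb2, a sensor of ultraviolet damage, fell by 0.55 ± 0.18 (adjusted p = 0.0352), of 6 genes tested, that is 1 in each direction where 15% and 14.6% of all genes were called. Ddb2 missed the threshold in 7 of 15 fits with a library left out (adjusted p up to 0.175), and in days 0.25 to 2 alone it was -0.12 (adjusted p = 0.743). Of 10 metabolic and other targets 3 rose and none fell, beside the same 15% and 14.6%, namely Gdf15, a stress-induced secreted factor, with 1.16 ± 0.19 (adjusted p = 0.00104), Slc19a2 with 0.47 ± 0.097 (adjusted p = 0.00408) and Gpx1 with 0.38 ± 0.10 (adjusted p = 0.0132). In Paneth-like cells, where no gene of the main set passed, Gdf15 (1.57 ± 0.22, adjusted p = 0.000175), Pmaip1 (1.13 ± 0.20, adjusted p = 0.00211) and Polk (0.71 ± 0.14, adjusted p = 0.00456) rose.

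These counts also moved with the scaling. Without TMM, where 4672 of all 11777 genes were called lower and 452 higher, 9 of 10 regulators were lower and none higher. Under that scaling the apoptosis list had 3 higher (Fas, Pmaip1 and Perp) and 1 lower (Trp53i11), the arrest list 1 lower (Gadd45a), the repair list 3 lower and the metabolic list 1 higher (Gdf15) and 2 lower. Fas, Pmaip1, Perp and Gdf15 thus rose, and Chek1, Atr, Trp53bp1, Gadd45a and Ddb2 fell, under both scalings.

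**Figure D5:**
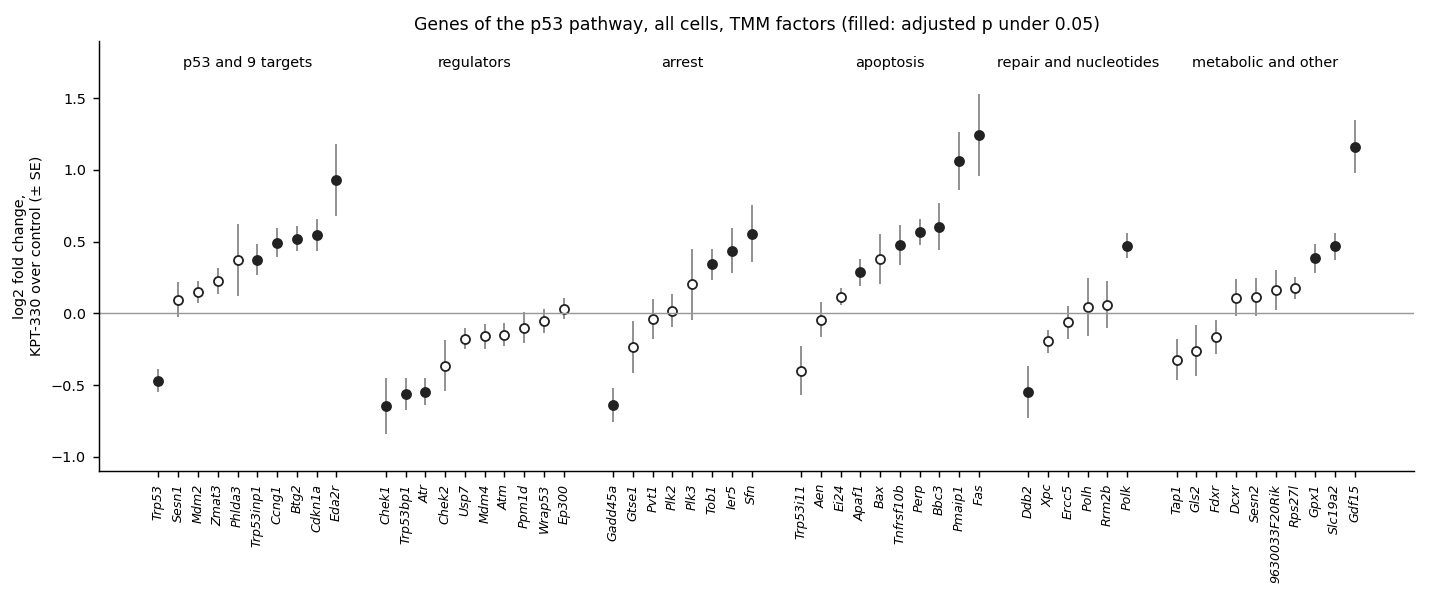
Log2 fold change of KPT-330 over control in all cells (vertical axis, ± SE) for the 10 genes and the tested genes of the 5 pathway lists, in order of size, with filled points for adjusted p under 0.05. The regulators lie mostly below 0 (median -0.17) and the apoptosis targets mostly above 0 (median 0.43).

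Over the 17 libraries the 10 genes did not move as 1 group. Among their 45 pairs, Pearson's r of the log2-transformed counts (scaled to CPM, with 1 added) was above 0 in 22 and below 0 in 23, at or above 0.7 in 8 and at or below -0.7 in 5. Trp53inp1 and Btg2 ran together (r = 0.935), as did Ccng1 and Eda2r (r = 0.893) and Trp53 and Zmat3 (r = 0.81), whereas Cdkn1a ran against Phlda3 (r = -0.863) and Trp53 against Btg2 (r = -0.839). Of all genes past the count filter, the 3 most like Trp53 were Khsrp (r = 0.982), Dsn1 (r = 0.981) and Cct3 (r = 0.981), and those most like Cdkn1a were 4933404O12Rik (r = 0.933), Cideb (r = 0.930) and Slc2a5 (r = 0.925). Mdm2 was most like Med13 (r = 0.908), Rb1cc1 (r = 0.907) and Kat6b (r = 0.904), and Ccng1 most like Sh2d4a (r = 0.918), Casp4 (r = 0.894) and Eda2r (r = 0.893). These values describe the libraries, which share their days, depth and cell make-up.

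In the GENCODE annotation of build mm10 the genes lie on 7 chromosomes. Trp53 spans chr11:69580359-69591873 and Ccng1 chr11:40748552-40755311, Cdkn1a chr17:29090976-29100727, Mdm2 chr10:117688875-117710758 and Sesn1 chr10:41809935-41908424. Btg2 spans chr1:134075170-134079120 and Phlda3 chr1:135766119-135769136, Zmat3 chr3:32334792-32366014, Trp53inp1 chr4:11156431-11174379 and Eda2r chrX:97333840-97377216. Cdkn1a overlaps the opposite-strand gene AC167363.2 by 1046 bases and Sesn1 overlaps 9930024M15Rik by 2584 bases, and neither neighbour is listed in the count tables, so reads from these stretches could be shared.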

How the data were processed

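The 10 genes and the pathway lists were chosen with earlier results of these data known. Per the methods, the authors prepared Seq-Well S3 libraries and aligned the reads with STAR to mm10 through the Drop-seq pipeline, and they deposited raw UMI counts per gene and cell. Counts of the 19877 cells named in the deposited quality-controlled table were used, from 23055 barcodes within its limits. No other filter or doublet caller was applied.

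Counts were summed per library, or per library and class with at least 20 cells, and tested with edgeR 4.0.16 (quasi-likelihood, TMM, filterByExpr, day as a factor, only days with both conditions) at an adjusted p under 0.05. Standard errors were derived from the fold change and the F statistic. Classes came from Seurat 5.3.0 clusters (SCTransform, 18 clusters) and 10 lists of 10 markers. The trend in control used day as a number. Alternatives included DESeq2 1.42.0, other filters, scalings and labellings, and each library left out. In fits within a class, leaving out the only library of a condition at a day also removed that day. Where a day had 1 library per condition, both gave the same fit, and counts of fits include these repeats. On simulated data with 200 genes changed by a log2 value of 1 among 11777, the all-cells fit recovered 88.5%, and 5.35% of its calls were wrong. With 200 genes changed among 8670, the stem II/III-like fit recovered 91%, and 8.08% of its calls were wrong. With 200 among 9746, the Paneth-like fit recovered 90.5%, and 9.5% of its calls were wrong. The data differ from this setting, with 29.6% of genes called in all cells and smaller changes in the called genes of the set. These rates therefore need not hold for them. Named genes were the 10, at most 4 genes of a pathway list past the threshold, by size, and the 3 genes most like Trp53, Cdkn1a, Mdm2 and Ccng1. Plk2, Plk3, Trp53i11 and the pathway genes that passed in the control trend were named after their values were seen. Whether the authors' counting used strand is not given in the sources used here.

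Promoters came from RefSeq (GRCm38.p6) and gene positions from GENCODE vM21. Zmat3 and Trp53inp1 have no promoter printed.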

Additional observations from a re-analysis of the deposited data

Results flagged for a closer look

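The KPT-330 effect differed between the 5 cell classes for 3 pathway genes and for the drug target, by the test of the difference itself in edgeR (adjusted over 11043 genes). For Pmaip1 the adjusted p was 0.0272, with log2 fold changes of 0.86 in stem II/III-like, 0.55 in stem I-like, 0.26 in enterocyte-like and 1.13 ± 0.20 in Paneth-like cells, of which the last passed within its class, and in enteroendocrine-like cells it was too sparse to be tested. For Plk2, a p53-responsive polo-like kinase, the adjusted p was 0.00995, with 0.87 in enterocyte-like and -0.43 in Paneth-like cells, although neither passed within its class. For Plk3, a related kinase, it was 0.0293, with -0.71 in enterocyte-like and 0.38 in Paneth-like cells, and again neither passed. None of the 3 held throughout. With DESeq2 the adjusted p was 0.599 for Pmaip1, 0.0759 for Plk2 and 0.759 for Plk3, and without TMM it was 0.106 for Pmaip1 and 0.114 for Plk3. With cells of at least 1000 genes it was 0.0786 for Plk3. With single libraries left out, Pmaip1 missed the threshold in 6 of 15 fits (adjusted p up to 0.28, highest without the control library of day 3), Plk3 in 6 of 15 (up to 0.462, highest without the control library of day 4) and Plk2 in 4 of 15 (up to 0.107, highest without the first control library of day 6).

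For Xpo1, the transcript of the exporter that KPT-330 inhibits, the adjusted p was 4.19e-05. Its log2 fold change was 1.04 in stem II/III-like, 1.64 in enterocyte-like, 1.85 in enteroendocrine-like, 2.00 in Paneth-like and 2.09 in stem I-like cells, and each passed within its class. The call held in 15 of 15 fits with a library left out. How far the different days and libraries behind each class bear on these differences was not tested.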

How the results depend on the processing

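Of 1650 values of the 10 genes recomputed under alternatives, 1512 kept direction and side of the threshold, 45 lost it, 21 gained it and 72 turned sign. Of these, 218 belonged to the 10 results past the threshold, of which 173 stayed, 45 lost the threshold and 0 turned sign. Library totals without TMM, subsets of the days, each stem class alone and the fit without 1 cluster were added after seeing the data.

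Of the 10 genes, 6 passed in all cells (5 to 7 with single libraries left out), and 3 without TMM. In stem II/III-like cells 2 passed, against 0 with cells of at least 1000 genes, 1 at Louvain resolution 0.8, 1 with labels from marker scores, and 0 in stem II-like or in stem III-like cells alone (0 to 1 with single libraries left out). In stem I-like cells 0 passed, against 1 without a filter and 1 at resolution 0.8 (0 to 1 with single libraries left out). In enterocyte-like cells 0 passed, against 1 with DESeq2, 1 with marker scores and 1 without the cluster richest in KPT-330 cells. In Paneth-like cells 0 passed, against 1 with DESeq2, without a filter, under the block, with marker scores or without TMM, where it was Trp53 (-0.39, adjusted p = 0.0327), and 0 to 1 with single libraries left out. In the control trend 2 passed (0 to 3 with single libraries left out).

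Libraries of day 6 have replicate numbers 1 and 2 in each condition. The deviations of the replicate 1 libraries from their group means correlated at r = 0.465 over 11777 genes. With 2 libraries per group, the replicate 2 deviations are the same values with the sign turned. What the numbers stand for is not given, and the main fits had no replicate term. With the replicate block 7 of the 10 genes passed in all cells, Zmat3 added (0.24, adjusted p = 0.0343), and 3773 genes in all against 3481, and 1 passed in Paneth-like cells (Btg2, 0.31, adjusted p = 0.0235).

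Log2 values that turned sign were as follows, none of them past the threshold before. Without TMM in all cells: Mdm2 -0.12, Zmat3 -0.030, Sesn1 -0.16, Epcam -0.18 and Cdh1 -0.083. Without TMM in Paneth-like cells: Mdm2 -0.13, Cdkn1a -0.088, Ccng1 -0.12 and Trp53inp1 -0.0063. In stem II-like cells alone: Trp53inp1 -0.040 and Sesn1 -0.32. Sesn1 in stem II/III-like cells was -0.0088 at resolution 0.8 and -0.10 with marker scores, and Mdm2 in enterocyte-like cells -0.014 at resolution 0.8 and -0.065 without TMM. For the product of treatment and day without TMM: Mdm2 -0.052, Phlda3 -0.048, Trp53inp1 -0.0115 and Ccng1 -0.072. Ccng1 was there -0.00064 with DESeq2, -0.00089 with its size factors, -0.0027 without a filter, -3.19e-06 with cells of at least 1000 genes, -0.0024 under the block and -0.0099 with all barcodes within the limits.

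With single libraries left out, values ran as follows. In stem II/III-like cells Mdm2 ran from -0.062 to 0.16 and Sesn1 from -0.0181 to 0.092. In stem I-like cells Trp53 ran from -0.15 to 0.00097, Trp53inp1 from -0.14 to 0.0064 and Btg2 from -0.077 to 0.19. In enterocyte-like cells Mdm2 ran from -0.0334 to 0.099, Trp53inp1 from -0.0475 to 0.24 and Btg2 from -0.22 to 0.089. In Paneth-like cells Mdm2 ran from -0.029 to 0.0597, Cdkn1a from -0.038 to 0.14 and Ccng1 from -0.0206 to 0.079, and in enteroendocrine-like cells Mdm2 from -0.088 to 0.016. In the control trend Mdm2 ran from -0.012 to 0.036, Cdkn1a from -0.042 to 0.12, Phlda3 from -0.26 to 0.10 and Eda2r from -0.20 to 0.053. For the product of treatment and day Mdm2 ran from -0.0095 to 0.042, Cdkn1a from -0.082 to 0.027, Ccng1 from -0.069 to 0.059, Phlda3 from -0.044 to 0.089 and Btg2 from -0.056 to 0.0049. The causes were not tested. Single libraries per day limit all of these comparisons, and the few counts of Phlda3 and Eda2r limit what can be said of those genes.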

Other observations

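Other genes of the p53 lists also moved over the control days, which again cannot be fully told apart from the replicate numbers. Of the genes tested, Plk2 rose by 0.37 per day on the log2 scale, while Chek2 fell by 0.39, Slc19a2 fell by 0.27, Tnfrsf10b fell by 0.21, Atr fell by 0.20 and Fdxr, which encodes ferredoxin reductase, fell by 0.18 per day, each past an adjusted p of 0.05 in edgeR. Plk2 held in 7 of 7 fits with a library left out, whereas Chek2 missed the threshold in 1 of 7 (adjusted p up to 0.0507), Slc19a2 in 4 (up to 0.111), Atr in 5 (up to 0.152), and Tnfrsf10b (up to 0.214) and Fdxr (up to 0.117) in 6 each. Of the other 6 alternatives, Tnfrsf10b missed it in 3 and Fdxr in 2, with adjusted p-values up to 0.0552 and 0.0512. Slc19a2 and Tnfrsf10b were higher with KPT-330 in all cells, at 0.47 and 0.48, and Atr was lower at -0.55.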
